A study of Mus musculus with 15 samples.

Results

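The genes for the Rel/NF-κB subunits and the inhibitors that feed back on them were followed through RNA-seq of mouse fetal liver cells transformed by the MLL-ENL oncogene. The set holds 10 of the 53379 genes in the table and was taken by gene symbol: the subunits Rel, Rela, Relb, Nfkb1 and Nfkb2, the classical inhibitors Nfkbia and Nfkbie, the atypical nuclear inhibitors Nfkbiz and Bcl3, and the ubiquitin-editing enzyme Tnfaip3. All 10 passed the filter on low values, as did 12673 genes in all. The cells came from Cebpa fl/fl/Cebpb fl/fl mice and carried MLL-ENL in every group, and all were grown with 10 ng/ml IL-3. WTFL cells kept both floxed C/EBP genes and list no exogenous expression. dKO cells lost Cebpa and Cebpb after treatment with TAT-Cre and carry a GFP vector. dKO-LAP* cells are dKO cells that express GFP and, from a rat cDNA, LAP*, which is the longest C/EBPβ protein. Used here were WTFL, dKO and dKO-LAP* cells of clone C1 and WTFL and dKO cells of clone C2, from another mouse. There were 3 RNA samples in each of the 5 groups. Each group is a clonal line whose RNA was isolated at different times, so the p-values measure the spread between RNA samples of a line and not between independently deleted clones. The vector and the outgrowth of a rare surviving clone go with the genotype and cannot be told apart from it.

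NF-κB dimers of Rel-family subunits sit in the cytoplasm bound to IκB proteins until a signal leads to the degradation of the inhibitor. Freed dimers enter the nucleus and switch on genes of inflammation and survival, among them the genes for IκBα and other brakes on the pathway, and in myeloid cells C/EBP factors act at many of the same inflammatory promoters. A second, non-canonical arm acts through processing of the Nfkb2 product and its partner RelB.

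The depth was 9212237 to 13613500 reads on genes per library (median 11885279). Values are normalized reads, that is, reads of a gene divided by the size factor of the library. Replicate 3 of WTFL C1 stood somewhat apart from the other samples of its line (chi-square per gene of 24.6 and 33.7 against them, where the closest replicates of any line reached 5.35), and so did replicate 2 of dKO C2 (20.4 and 13.6). Cebpa and Cebpb had no read in any of the 6 dKO libraries, against 1101 ± 292 and 1454 ± 90.7 normalized reads (SD, n = 3) in WTFL C1 and 1963 ± 307 and 1467 ± 148 in WTFL C2. In dKO-LAP* cells, reads of the Cebpb gene reached 3106 ± 961, and 1 library held 1 read of Cebpa. Cebpe, a related C/EBP factor of granulocytes, rose from 408 ± 55.8 to 2107 ± 143 in clone C1 and from 505 ± 10.5 to 2166 ± 51.9 in clone C2 (adjusted p = 8e-11 and 3.6e-10, limma), and had 1809 ± 257 in dKO-LAP* C1.

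Many genes of this set are known NF-κB targets themselves, so the bases before their transcription starts are shown. RefSeq's promoter table (GRCm38.p6) matched 7 of the 10 genes, with 10 starts: Rel, Rela, Nfkb2, Nfkbia, Nfkbie, Bcl3 and Tnfaip3. In the 250 bases before a start, both strands were searched for GGNNNTTCC, a core frame of many NF-κB sites, for the 10-base NF-κB consensus, which overlaps that frame where both match, and for TTNCNNAA, a frame of the palindromic C/EBP site. The first was present before 1 or more starts of 6 of the 7 genes, and the consensus of 5. Rela held neither. Counted per gene in the same way, 17.6% of the 27025 genes in the table held the core frame, 8.23% the consensus and 40.3% the C/EBP frame, which 2 of the 7 genes held. Over all 32851 starts the shares were 15.7%, 7.25% and 36.8%. A match describes letters in this window only.

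The windows of Nfkbia and Nfkbie touch no annotated exon and are given whole, at chr12:55492648-55492897 on the minus strand and chr17:45555450-45555699 on the plus strand. For the other 4 genes, whose windows reach into annotated exons, 30 bases around the densest matches are given, at chr11:23771042-23771071 (minus strand, Rel), chr19:46304688-46304717 (plus strand, Nfkb2), chr7:19822841-19822870 (minus strand, Bcl3) and chr10:19015411-19015440 (minus strand, Tnfaip3). All run 5′ to 3′ along the gene, and capitals mark matches to the core frame or the consensus.
Nfkbia: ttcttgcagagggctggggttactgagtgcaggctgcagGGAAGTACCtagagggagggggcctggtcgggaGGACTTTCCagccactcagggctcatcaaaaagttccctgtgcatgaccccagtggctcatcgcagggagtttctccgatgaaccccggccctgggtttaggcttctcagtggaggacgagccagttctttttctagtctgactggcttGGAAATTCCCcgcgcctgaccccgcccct
Nfkbie: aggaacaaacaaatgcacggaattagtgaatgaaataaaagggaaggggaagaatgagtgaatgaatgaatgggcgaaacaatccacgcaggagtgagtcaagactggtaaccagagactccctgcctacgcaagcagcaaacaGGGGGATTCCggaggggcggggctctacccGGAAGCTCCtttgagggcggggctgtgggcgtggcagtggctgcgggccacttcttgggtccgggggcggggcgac
Rel: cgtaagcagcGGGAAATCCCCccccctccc
Nfkb2: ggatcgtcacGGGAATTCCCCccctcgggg
Bcl3: acgcgggtccaGGAAACCCCtggggcggac
Tnfaip3: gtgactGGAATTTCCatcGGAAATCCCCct
Tnfaip3 carried a pair of such matches within its last 24 bases before the start, and the match of Nfkbia nearest to its start began 29 bases before it.

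**Figure D1:**
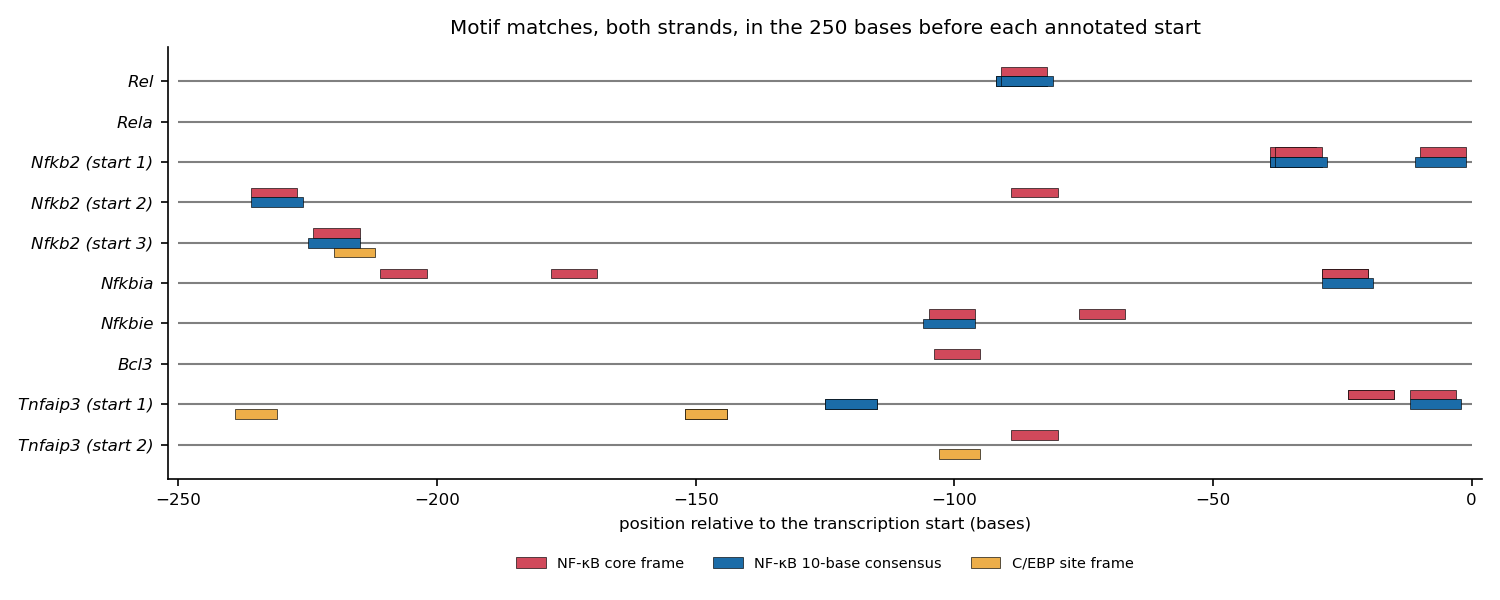
Motif matches in the 250 bases before each RefSeq start of the 7 matched genes; the x axis is the distance from the transcription start in bases and each bar is a match on either strand. NF-κB frames or consensus matches lie before every start shown but that of Rela, and C/EBP site frames lie before starts of Nfkb2 and Tnfaip3.

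In clone C1, messages of all 10 genes were lower in dKO than in WTFL cells (limma on log2(normalized reads + 1), Benjamini-Hochberg over all genes tested, adjusted p under 0.05), while 19.9% of the 12673 tested genes were called lower and 17.1% higher. The falls ranged from 1.25-fold for Rela to 13.4-fold for Nfkbiz, and the median difference of the 10 genes was -1.12 on the log2 scale beside -0.01 over all genes tested. Nfkbiz, Tnfaip3 and Relb fell most and Rela and Rel least. Without replicate 3 of WTFL C1, the lowest of its line for 7 of the 10 genes, the count was 10 as well. The differences were then -4.13, -3.03 and -2.83 for Nfkbiz, Tnfaip3 and Relb. Without replicate 2, the highest for 9 genes, Rel and Rela did not pass (adjusted p = 0.13 and 0.076, limma). Under quantile normalization they did not pass either (adjusted p = 0.062 and 0.052, limma). In bulk RNA, fewer cells of a type and less RNA per cell cannot be told apart.

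**Figure D2:**
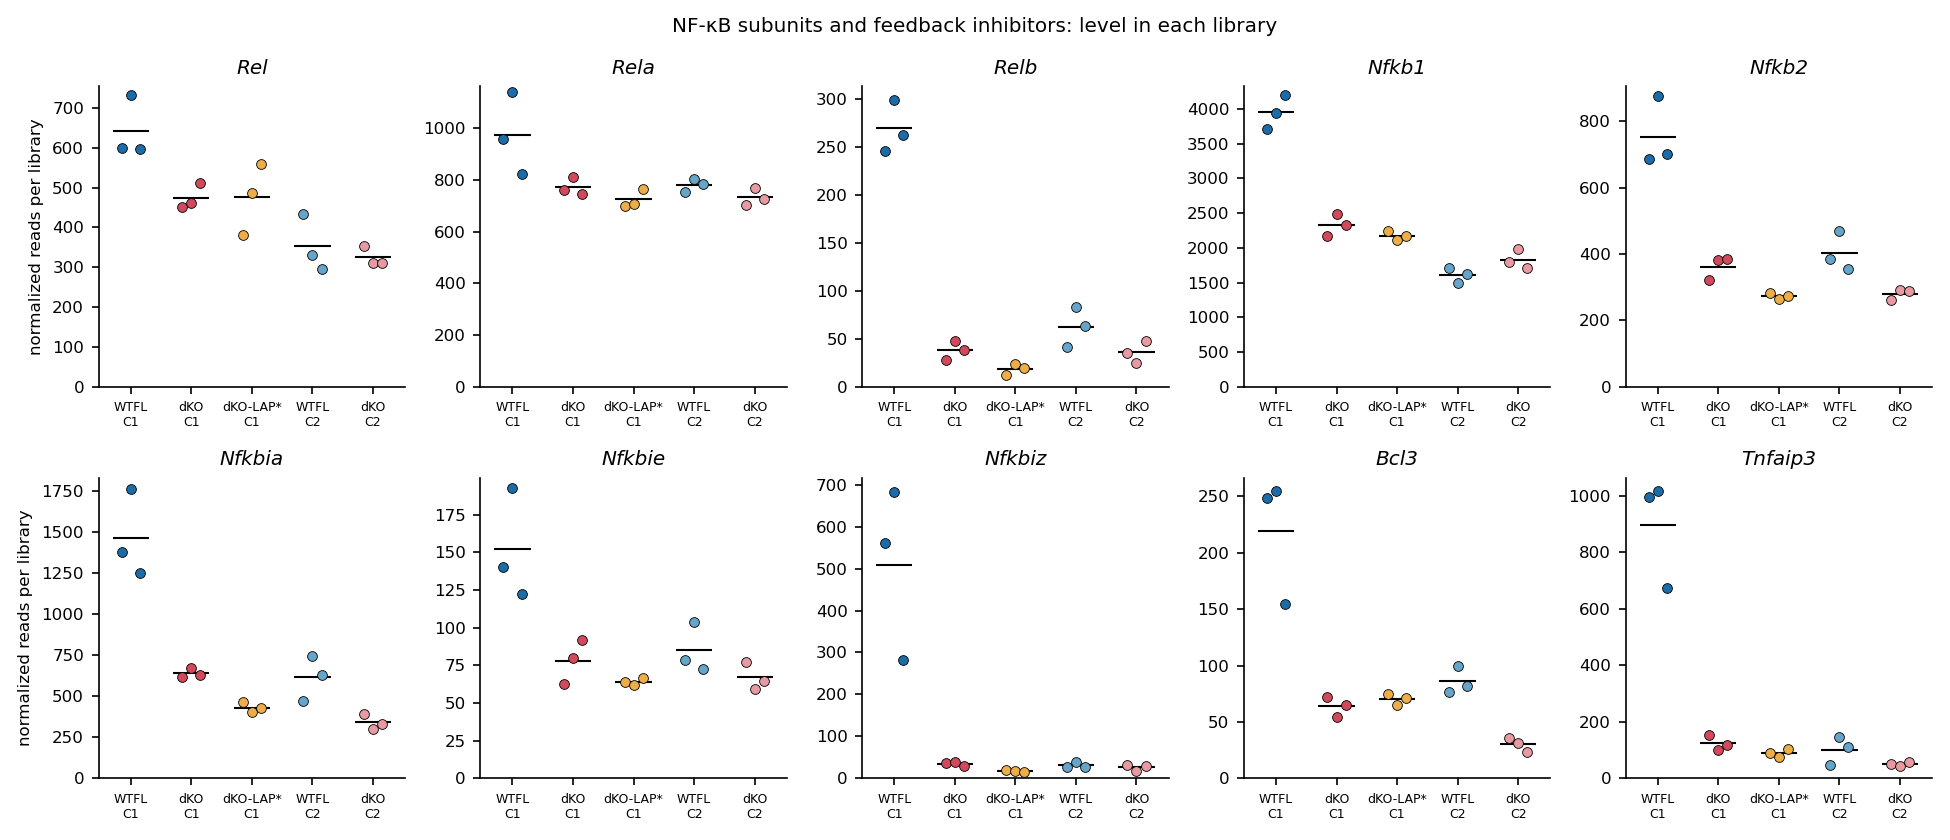
Normalized reads of each gene (y axes from 0, a scale for each gene) in the 15 libraries; points are libraries, replicates 1 to 3 from left to right, and lines are group means. All WTFL C1 libraries lie above those of the other 4 groups for each of the 10 genes.

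Among the subunits, Relb showed the widest range. This transactivating partner of the Nfkb2 product (chromosome 7, 19606217 to 19629438) had 246, 299 and 263 normalized reads in replicates 1, 2 and 3 of WTFL C1 and 28.3, 48.2 and 38 in dKO C1. It had 12.2, 24 and 20.1 in dKO-LAP* C1, 41.8, 82.8 and 63.2 in WTFL C2 and 35.6, 25.3 and 48.3 in dKO C2. WTFL C1 thus stood alone at the top without overlap, and WTFL C2, dKO C1 and dKO C2 followed with overlapping libraries. dKO-LAP* C1 was the lowest of the 5 groups, and no library of it reached the lowest one of dKO C2. Relb fell 7.04-fold in dKO cells of clone C1 (log2 difference -2.82 ± 0.30 SE, adjusted p = 2.4e-06, limma). In clone C2 the difference was -0.76 ± 0.30 and did not pass the test (adjusted p = 0.059, limma), which it did without replicate 1 of WTFL C2 or replicate 3 of dKO C2 (adjusted p = 0.021 and 0.032) and by edgeR and DESeq2 (adjusted p = 0.042 and 0.027).

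Nfkb2 (chromosome 19, 46304320 to 46312385), whose precursor is processed in the non-canonical arm, had 685, 876 and 702 normalized reads in WTFL C1 against 322, 381 and 384 in dKO C1. In clone C2 it had 384, 470 and 354 in WTFL and 260, 292 and 290 in dKO cells. The dKO libraries were below the WTFL libraries in both clones, by 2.07-fold in clone C1 (adjusted p = 4.3e-06, limma) and 1.42-fold in clone C2 (adjusted p = 0.0031, limma). Exons of AC114539.1 and Psd overlap those of Nfkb2 on the opposite strand over 531 and 299 bases, and the strand setting of the counting is not given in the sources used here. Psd itself had at most 9.44 normalized reads in any library.

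Nfkb1 (chromosome 3, 135584655 to 135691547), which encodes the precursor of the most common partner of RelA, had 3709, 3947 and 4196 normalized reads in WTFL C1 and 2173, 2488 and 2330 in dKO C1, a fall of 1.70-fold (adjusted p = 1.3e-06, limma). In clone C2 the order turned: 1707, 1491 and 1623 in WTFL cells and 1798, 1987 and 1713 in dKO cells. The dKO libraries of clone C2 all lay above its WTFL libraries, by a log2 difference of 0.19 ± 0.08 (adjusted p = 0.066, limma). Without replicate 1 of WTFL C2 or replicate 3 of dKO C2 this difference passed (adjusted p = 0.048 and 0.049).

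Rela (chromosome 19, 5637483 to 5648130), the main activating subunit of the canonical arm, had 958, 1140 and 822 normalized reads in WTFL C1 and 760, 809 and 744 in dKO C1. Rel (chromosome 11, 23736847 to 23770970), the c-Rel subunit of blood cells, had 599, 733 and 597 in WTFL C1 and 451, 460 and 512 in dKO C1. Both fell little, Rela 1.25-fold (adjusted p = 0.014, limma) and Rel 1.35-fold (adjusted p = 0.032, limma). Without replicate 2 of WTFL C1, neither passed the test (Rela -0.20, adjusted p = 0.076, and Rel -0.34, adjusted p = 0.13, limma). Rela also did not without replicate 3 of dKO C1 (adjusted p = 0.052), nor Rel without its replicate 1 or 2 (adjusted p = 0.088 and 0.083), and under quantile normalization neither passed (adjusted p = 0.052 and 0.062). With only the groups compared in the fit, Rela did not pass (adjusted p = 0.09). In clone C2 the libraries of WTFL and dKO cells overlapped for both genes, at 751 to 801 and 704 to 767 normalized reads for Rela and at 295 to 433 and 310 to 355 for Rel.

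Levels of the subunits were compared per kilobase of the principal transcript of GENCODE vM21. Their sum was 1722 ± 109 normalized reads per kb in WTFL C1 (SD, n = 3) and 1025 ± 60 in dKO C1, and 857 ± 13.2 and 848 ± 40 in WTFL and dKO cells of clone C2. Nfkb1 had the largest share by this length, at 55.8% ± 3.9 in WTFL C1, 55.2% ± 0.49 in dKO C1, 45.5% ± 3.1 in WTFL C2 and 52.5% ± 1.7 in dKO C2. The share of Rela was 20.8% ± 2.7 in WTFL C1 and 27.7% ± 1.2 in dKO C1, where its own level was lower. The share of Relb went from 7.07% ± 0.26 in WTFL C1 to 1.67% ± 0.34 in dKO C1 and 0.906% ± 0.3 in dKO-LAP* C1. WTFL C2 had 3.31% ± 1.1 for Relb and 33.4% ± 1.4 for Rela. The order of Nfkb1 and Rela depended on the length used: with all annotated exons, Nfkb1 had 34.1% and Rela 32.7% in WTFL C1 but 32.4% and 42.1% in dKO C1. Relb then had 7.19% and 1.64%. These shares were not tested.

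**Figure D3:**
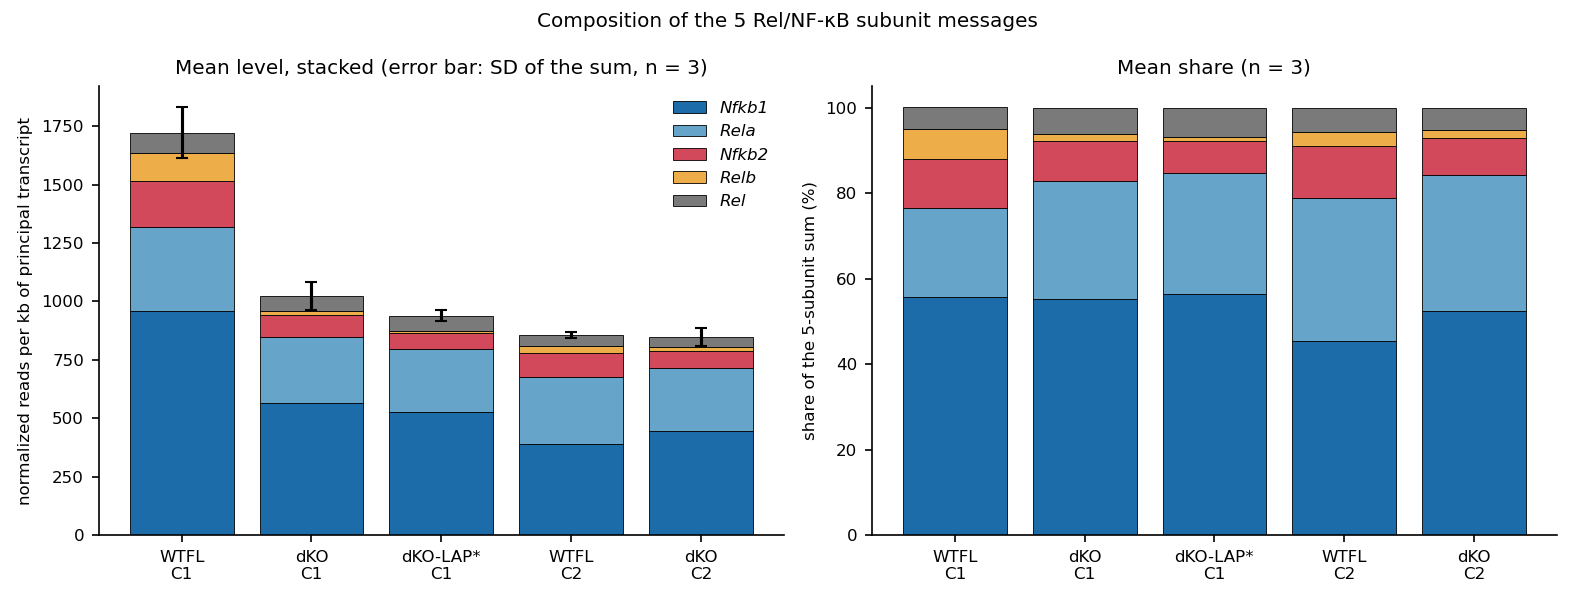
Left, mean normalized reads per kb of principal transcript of the 5 subunits, stacked, by group, with the SD of the sum (n = 3); right, mean share of each subunit in that sum in percent. The sum is largest in WTFL C1 (1722 reads per kb), and the Relb segment is 7.07% there and 0.906% to 3.31% in the other groups.

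The classical inhibitors fell as well. Nfkbia (chromosome 12, 55489410 to 55492647) encodes IκBα, which is degraded and resynthesized in each round of activation. It had 1379, 1758 and 1249 normalized reads in WTFL C1, 618, 670 and 626 in dKO C1 and 466, 401 and 425 in dKO-LAP* C1. Clone C2 held 473, 742 and 631 in WTFL cells and 389, 302 and 330 in dKO cells. The groups did not overlap in either clone, and Nfkbia fell 2.27-fold in clone C1 (adjusted p = 1.4e-05, limma) and 1.78-fold in clone C2 (adjusted p = 4e-04, limma). Nfkbie (chromosome 17, 45555703 to 45563169), which encodes IκBε, had 140, 193 and 122 in WTFL C1 and 62.3, 79.7 and 91.8 in dKO C1. Its fall of 1.93-fold passed the test in clone C1 (adjusted p = 0.0015, limma). In clone C2, with 78.7, 104 and 72.4 in WTFL and 77.4, 59.3 and 64.4 in dKO cells, the libraries overlapped (adjusted p = 0.21, limma).

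Nfkbiz, Bcl3 and Tnfaip3 are induced by NF-κB or inflammatory signals in many cells. Nfkbiz (chromosome 16, 55811375 to 55838899) encodes IκBζ, a nuclear cofactor that helps to switch on secondary inflammatory genes. It had 561, 684 and 281 normalized reads in WTFL C1, and 36.2, 37.8 and 30 in dKO C1. The 3 other groups held 20.3, 18.4 and 14.6 (dKO-LAP* C1), 26.9, 37.8 and 27.5 (WTFL C2) and 32.4, 17.5 and 29 (dKO C2). Every group but WTFL C1 was thus below 38 reads, while replicate 3 of WTFL C1 was less than the other two of its line and still far above all other groups. Nfkbiz fell 13.4-fold in clone C1 (log2 difference -3.75 ± 0.30, adjusted p = 1e-07, limma). Its difference in clone C2 was -0.24 ± 0.30 (adjusted p = 0.56, limma), with a 95% interval of -0.88 to 0.39.

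Tnfaip3 (chromosome 10, 19000910 to 19015657) encodes the enzyme that takes down ubiquitin chains upstream of the kinase complex. It had 994, 1016 and 675 normalized reads in WTFL C1 and 154, 99.7 and 119 in dKO C1, a fall of 7.14-fold (adjusted p = 2.2e-06, limma). Clone C2 held 48.8, 145 and 109 in WTFL and 50.2, 44.7 and 56.9 in dKO cells. Replicate 1 of WTFL C2 was as low as the dKO libraries, and the fall of 1.81-fold only just passed the test (adjusted p = 0.036, limma), which it did not pass without any of 5 of the 6 libraries of clone C2 (adjusted p of 0.052 to 0.19; the exception was replicate 1 of WTFL C2). It also did not pass under quantile normalization or when the compared groups were fitted alone (adjusted p = 0.058 and 0.14).

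Bcl3 (chromosome 7, 19808462 to 19822770) encodes a nuclear IκB protein that binds homodimers of the Nfkb1 and Nfkb2 products. It had 249, 255 and 155 normalized reads in WTFL C1 and 72.5, 54.5 and 65.3 in dKO C1. In clone C2 it had 76.7, 99.6 and 81.5 in WTFL and 35.6, 31.1 and 23.6 in dKO cells. Bcl3 fell in both clones without overlap, 3.33-fold in clone C1 (adjusted p = 7.9e-06, limma) and 2.82-fold in clone C2 (adjusted p = 4.1e-05, limma). On the log2 scale these falls were -1.73 ± 0.21 and -1.49 ± 0.21.

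In clone C2, 4 of the 10 genes were lower in dKO cells (Nfkb2, Nfkbia, Bcl3 and Tnfaip3), where 20.1% of all tested genes were called lower and 17.4% higher. None was called higher by limma or edgeR, 1 by DESeq2 (Nfkb1) and 1 at an unadjusted p under 0.05. The median difference was -0.42 beside -0.03 over all genes tested. Without replicate 2 of dKO C2, 3 were lower, all but Tnfaip3. The dKO effect itself differed between the clones for 5 genes (29.4% of all tested genes differed in either direction), each with the more negative difference in clone C1: Nfkbiz by 3.50 ± 0.42 on the log2 scale, Relb by 2.05 ± 0.43, Tnfaip3 by 1.98 ± 0.43, Nfkb1 by 0.95 ± 0.11 and Nfkb2 by 0.54 ± 0.17 (adjusted p of 1.9e-05, 0.0018, 0.0023, 1.2e-05 and 0.024, limma). The call for Nfkb2 did not hold without any of 5 libraries, which were replicate 2 of WTFL C1, replicate 1 of dKO C1, replicates 1 and 3 of WTFL C2 and replicate 3 of dKO C2 (adjusted p of 0.052 to 0.07). Rela, at 0.24, passed without replicate 3 of WTFL C1 (0.35, adjusted p = 0.031). For Bcl3 and Nfkbia the difference was not detectable, with 95% intervals of -0.39 to 0.87 and -0.11 to 0.80.

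The clones already differed before deletion. All 10 genes were lower in WTFL C2 than in WTFL C1, where 21.3% of all tested genes were called lower and 19.7% higher. The median difference was -1.28 beside -0.01 over all genes, and the differences ran from 1.24-fold for Rela to 15.2-fold for Nfkbiz. Tnfaip3 was 9.50-fold and Relb 4.40-fold lower in WTFL C2 (adjusted p = 3.3e-07 and 3e-05, limma). For Nfkb1, WTFL C2 (1607 ± 109, n = 3) was the lowest of the 5 groups, and for Nfkbiz its libraries overlapped with those of dKO C1 and dKO C2. Rela did not pass without replicate 2 of WTFL C1 or replicate 1 of WTFL C2, or when these groups were fitted alone (adjusted p = 0.088, 0.056 and 0.082). Since the clones come from different mice, mouse and clone cannot be told apart here, and this comparison shares its WTFL libraries with the dKO comparisons.

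**Figure D4:**
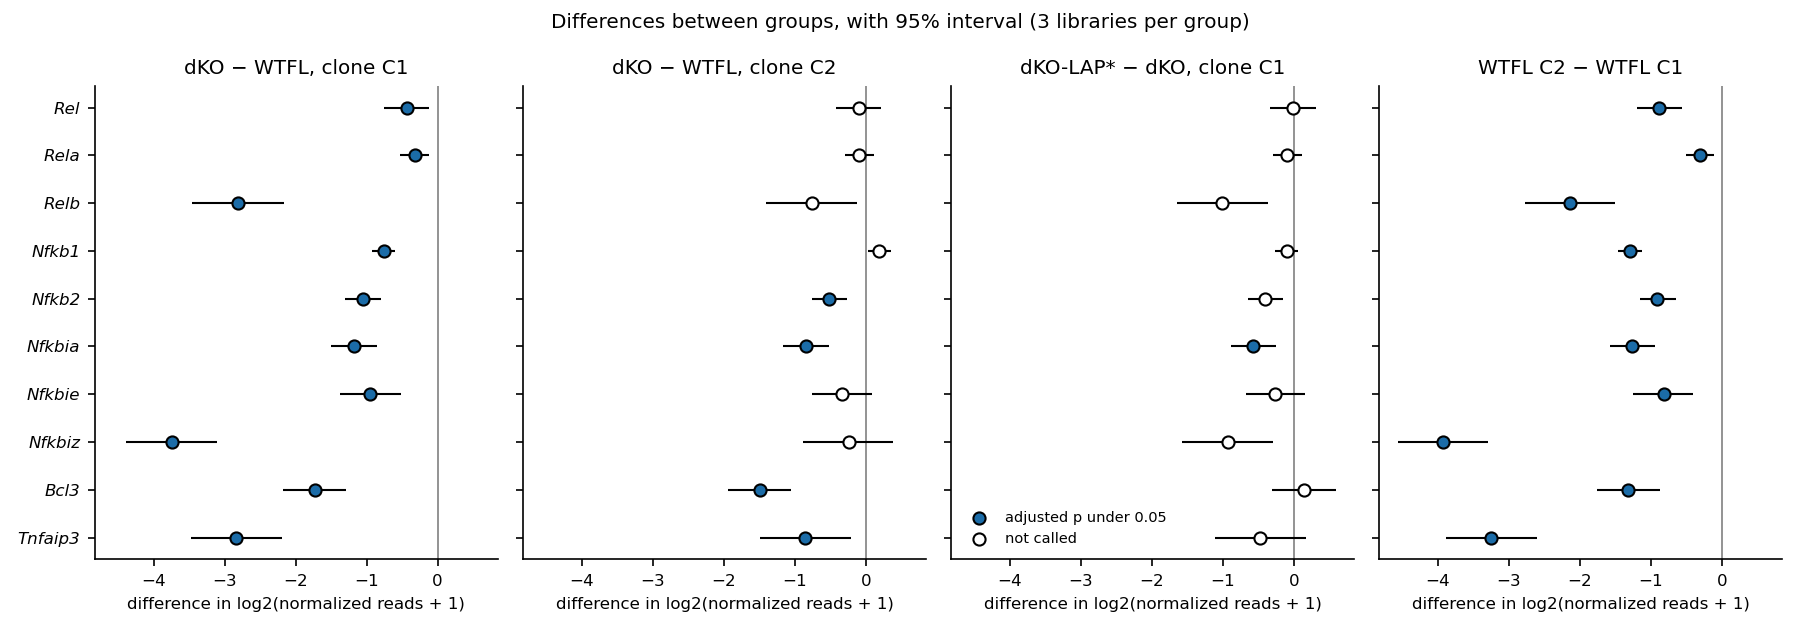
Difference in log2(normalized reads + 1) between groups for each gene with its 95% interval, which is not adjusted for the number of genes tested, in 4 comparisons; filled points passed an adjusted p of 0.05. Relb, Nfkbiz and Tnfaip3 lie farthest to the left in clone C1 and in WTFL C2 against WTFL C1, and 1 gene, Nfkbia, passed in dKO-LAP* against dKO cells.

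The dKO-LAP* cells of clone C1 show the levels of these genes when LAP* is put back into dKO cells, in which Cebpe is also expressed. No gene of the set rose in dKO-LAP* cells by limma, edgeR, DESeq2 or at an unadjusted p under 0.05. Nfkbia alone was called, with a log2 difference of -0.57 ± 0.15, so that it was lower still (adjusted p = 0.044, limma). Calls made up 3.03% (lower) and 1.43% (higher) of all tested genes. The call for Nfkbia did not hold without any library of either group (adjusted p of 0.057 to 0.16). Relb, Nfkbiz and Nfkb2 were lower in all dKO-LAP* than in all dKO libraries, with differences of -1.01 ± 0.30, -0.93 ± 0.30 and -0.40 ± 0.12, and none passed the adjusted test (adjusted p = 0.074, 0.097 and 0.074, limma). For Rela, Rel and Nfkb1 the 95% intervals of the difference were -0.29 to 0.11, -0.33 to 0.31 and -0.26 to 0.06. Against WTFL C1, all 10 genes were lower in dKO-LAP* cells (18.3% of all tested genes were called lower and 14.2% higher), from -0.41 for Rela to -4.68 for Nfkbiz. Rel (-0.45, adjusted p = 0.032) did not pass without replicate 2 of WTFL C1 or replicate 1 or 2 of dKO-LAP* C1 (adjusted p = 0.13, 0.16 and 0.054), under quantile normalization (adjusted p = 0.075) or when the compared groups were fitted alone (adjusted p = 0.09, and 0.051 for Rela). The dKO-LAP* values of Bcl3, 75.2, 65.5 and 71.1, overlapped those of dKO cells and were below all WTFL values.

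Other parts of the pathway were counted on fixed lists, which overlap in part with each other. Of 12 other inhibitors, 7 fell and 2 rose after deletion in clone C1 (median -0.38). In clone C2, 3 were called lower (median -0.13), a share near the 20.1% of all tested genes, and 0 without replicate 3 of WTFL C2. DESeq2 called 2 lower and 1 higher there. Of the 3 called by limma, 1 was Tnip3, which passed the filter on low values only through clone C1. It had at most 4 reads in any clone C2 library, so its call there is not a usable fall. The shares over all genes in clone C1 were 19.9% lower and 17.1% higher. Tnip1, an adaptor of the Tnfaip3 product, went from 2215 ± 164 to 950 ± 70.5 normalized reads in clone C1 (adjusted p = 1.8e-08, limma). In clone C2 it went from 752 ± 53.1 to 639 ± 8.61 (adjusted p = 0.041, limma), a call that did not hold by DESeq2 (adjusted p = 0.063), under quantile normalization (adjusted p = 0.058), without a filter (adjusted p = 0.07) or without any library of clone C2 but replicate 1 of WTFL cells (adjusted p of 0.07 to 0.15). Tnip3, a related adaptor, had 343 to 414 normalized reads in WTFL C1, 1.13 to 10.5 in dKO C1 and at most 3.66 in clone C2, where the dKO libraries had none. Nfkbib, the IκBβ gene, fell from 407 ± 13.9 to 321 ± 3.71 in clone C1 and from 383 ± 32.3 to 300 ± 24.3 in clone C2 (adjusted p = 0.012 and 0.01, limma). Without replicate 3 of WTFL C2, neither Nfkbib nor Tnip3 was called in clone C2 (adjusted p = 0.058 and 0.063).

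Signalling genes upstream form the next lists. Of 18 genes of the canonical arm, from TNF receptors to the kinase complex, 4 were lower and 1 higher in each clone, with medians of -0.08 and -0.11, and the 4 lower genes were a share near those of all tested genes (19.9% and 20.1%). The 1 higher gene of clone C1 was not called without replicate 2 or 3 of WTFL or replicate 1 or 3 of dKO cells, without a filter or with only the groups compared, and quantile normalization gave 2. In clone C2, 2 were higher without replicate 2 of dKO cells. The only gene called the same way in both clones was Tnfrsf1b, a TNF receptor of blood cells, at 3445 ± 242 and 1630 ± 37.6 normalized reads in WTFL and dKO cells of clone C1 and 1818 ± 285 and 1292 ± 66.8 in those of clone C2 (adjusted p = 1.1e-06 and 0.0022, limma). The kinase gene Ikbkb differed by -0.01 in clone C1, where it did not pass the test, and was higher by 0.33 in clone C2. Of 10 genes of the non-canonical arm, 8 were tested, of which 4 fell and 3 rose in clone C1 while 2 fell and 1 rose in clone C2; without replicate 2 of WTFL C2 the falls in clone C2 numbered 1, and without replicate 2 of dKO C2 the rises numbered 2. Over all tested genes the shares were 19.9% lower and 17.1% higher in clone C1 and 20.1% and 17.4% in clone C2. The lymphotoxin receptor gene Ltbr fell from 1105 ± 87.9 to 863 ± 111 in clone C1 and from 929 ± 20.6 to 675 ± 21.1 in clone C2 (adjusted p = 0.0037 and 0.00055, limma), and with only the groups compared in the fit it did not pass in clone C1 (adjusted p = 0.052). Tnfrsf13b, the gene of the receptor TACI, rose in both clones, from 957 ± 44.7 to 1317 ± 74.7 and from 476 ± 17 to 626 ± 4 (adjusted p = 4.6e-05 and 0.00021, limma). Tnfrsf11a, which encodes the receptor RANK, was low throughout, with 7.13 to 22.6 normalized reads in WTFL C1 and 1.13 to 4.41 in dKO C1 (adjusted p = 0.0025, limma), and 4.58 to 16.8 in WTFL C2 and 0.97 to 2.15 in dKO C2 (adjusted p = 0.01, limma, and 0.062 without replicate 2 of WTFL C2).

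Textbook NF-κB target genes fell mostly in clone C1. Of 32 such genes 29 were tested, of which 22 fell in clone C1 and none rose by limma, edgeR, DESeq2 or at an unadjusted p under 0.05 (median -1.58), where 19.9% of all tested genes were lower. Under quantile normalization or without replicate 2 of WTFL C1, 1 rose. In clone C2, 7 were lower and 6 higher (median -0.50), shares near the 20.1% and 17.4% of all tested genes. By edgeR and DESeq2 5 were lower, and without replicate 2 of dKO C2 there were 3. The near-identical Bcl2a1 genes on this list may share reads. Cxcl2, a neutrophil-attracting chemokine, had 61.1 to 465 normalized reads in WTFL C1 and at most 1.13 in dKO C1 (adjusted p = 2.1e-06, limma), and 23.9 to 73.4 and 2.15 to 10.5 in WTFL and dKO cells of clone C2 (adjusted p = 0.0042, limma). Cxcl10, an interferon-induced chemokine, had 162 to 935 in WTFL C1 and 4.20 to 10.2 in dKO C1 (adjusted p = 4.5e-06, limma). In clone C2 it had 28.9 to 56.6 and 1.94 to 22.5 (adjusted p = 0.016, limma). Of these target genes 20 were lower and 3 higher in WTFL C2 than in WTFL C1, where the shares of all tested genes were 21.3% and 19.7%. The higher ones numbered 1 without replicate 3 of WTFL C1, without replicate 2 of WTFL C2 or when the WTFL groups were fitted alone. The chemokine gene Ccl4 was among the higher ones, with a difference of 1.73 on the log2 scale (adjusted p = 0.024, limma). Its WTFL C1 libraries had 217, 256 and 62.2 normalized reads, so replicate 3 adds to this difference. It had 540 ± 254 in WTFL C2 and 178 ± 103 in WTFL C1, and fell to 52.8 ± 19.8 and 15.4 ± 6.43 in the dKO cells (adjusted p = 0.00027 and 0.00026, limma). Traf1, a signalling adaptor, had 14.7 to 78.5 in WTFL C1 against at most 0.88 in dKO C1 (adjusted p = 1.2e-05, limma), and 7.97 to 21 against 0.97 to 3.22 in clone C2 (adjusted p = 0.02, limma). The calls of Cxcl10 and Traf1 in clone C2 did not hold without replicate 2 of WTFL cells (adjusted p = 0.069 and 0.1) or replicate 2 of dKO cells (adjusted p = 0.091 and 0.087). Cxcl10 also did not pass by edgeR (adjusted p = 0.059) or with only the groups compared (adjusted p = 0.062), and with a pseudocount of 0.1 neither Traf1 (adjusted p = 0.12) nor Cxcl2 (adjusted p = 0.05) passed. In dKO-LAP* against dKO cells, no target gene was called by limma, edgeR or DESeq2, 1 was called lower with the replicate number as a block, and 1 was lower and 1 higher at an unadjusted p under 0.05.

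**Figure D5:**
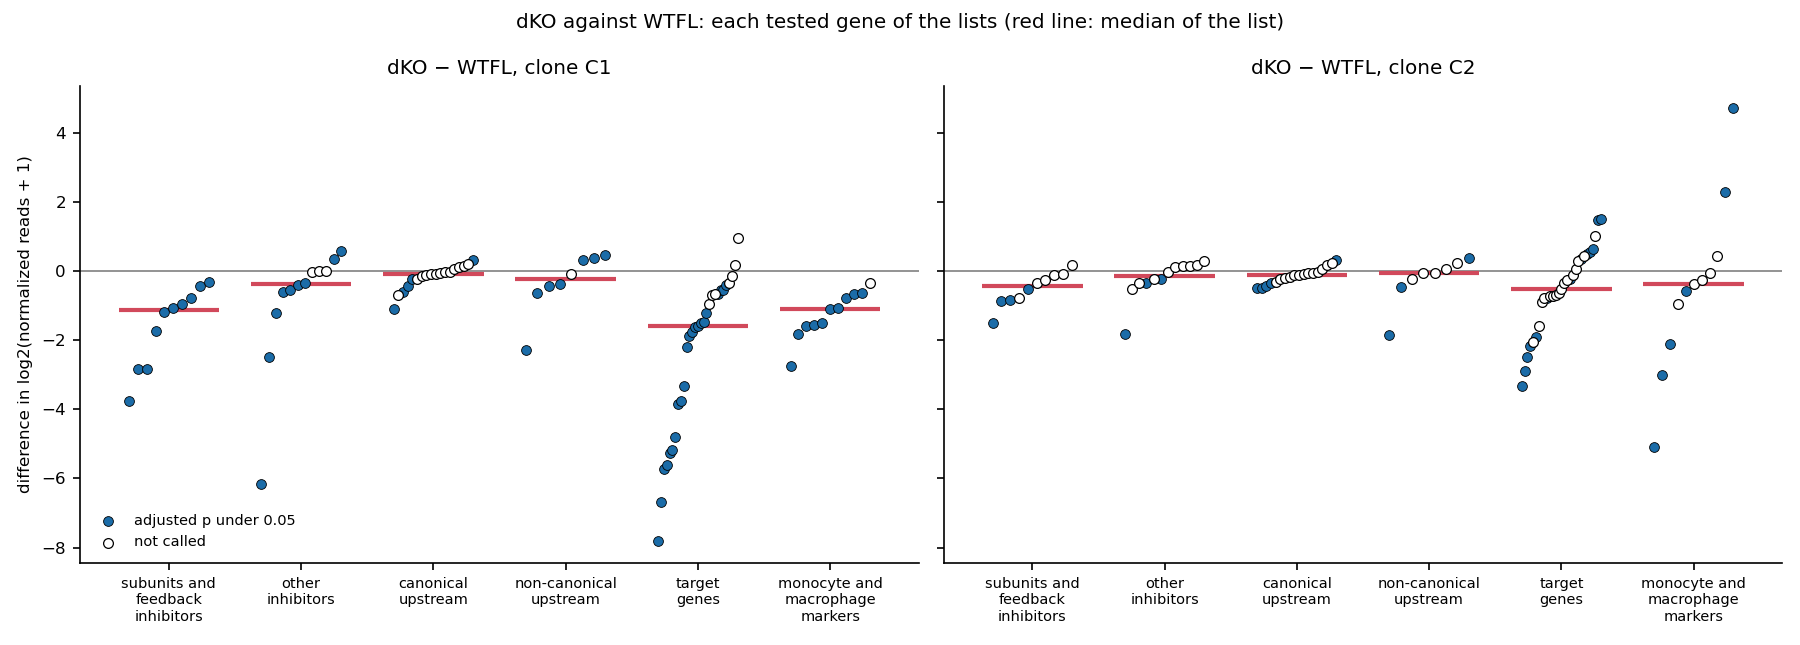
Difference in log2(normalized reads + 1) between dKO and WTFL cells for each tested gene of the lists, ordered by size within a list, in clone C1 (left) and clone C2 (right); filled points passed an adjusted p of 0.05 and red lines are list medians. In clone C1 the medians are -1.12 for the subunits and feedback inhibitors, -1.58 for the target genes and -0.08 for the canonical upstream genes.

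Markers of myeloid cell types moved with these comparisons, and their part in the result was not tested. The 12 monocyte and macrophage markers summed to 53749 to 75538 normalized reads in WTFL C1, 32973 to 39205 in dKO C1, 32304 to 34383 in dKO-LAP* C1, 21467 to 23561 in WTFL C2 and 15523 to 18544 in dKO C2. Of the 11 tested, 10 fell in clone C1, 4 fell and 2 rose in clone C2, and 9 were lower in WTFL C2 than in WTFL C1. The shares of all tested genes were 19.9% lower in clone C1, 20.1% lower and 17.4% higher in clone C2, and 21.3% lower between the WTFL lines. The monocyte receptor gene Csf1r had 3237 ± 381 normalized reads in WTFL C1, 921 ± 213 in dKO C1, 45.9 ± 16.6 in WTFL C2 and 60.8 ± 12.2 in dKO C2. The macrophage markers Adgre1 and Fcgr1 were the 2 that rose in clone C2, from 293 ± 112 to 1421 ± 377 and from 1.34 ± 0.659 to 60.6 ± 11. Other markers were lower in all dKO than in all WTFL libraries of clone C2. Among them, F13a1 had 663 to 1498 normalized reads in WTFL C2 and 26.3 to 35.4 in dKO C2. Ccr2 had 2392 to 3720 and 281 to 494, and Cd14 had 254 to 581 and 56.4 to 120. Within WTFL C1, replicate 2 held the most and replicate 3 the least of the monocyte markers (75538 and 53749). They also held the highest and the lowest level for 9 and 7 of the 10 genes. In WTFL C2, replicates 2 and 1 held the most and the least (23561 and 21467), with the highest and lowest level for 8 and 6 genes. Abundant genes weigh most in such sums, here and in the lists below. In replicate 1 of WTFL C1, Ly6c2, F13a1 and Lyz2 had 32483, 11698 and 11550 of 67920.

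Neutrophil markers summed to 27412 to 35627 normalized reads in WTFL C1, 95498 to 118996 in dKO C1 and 37621 to 42170 in dKO-LAP* C1, and 51780 to 94037 and 60381 to 94790 in WTFL and dKO cells of clone C2. Of the 9, 8 were higher in dKO cells of clone C1 (17.1% of all tested genes were). In dKO cells of clone C2, 3 were higher and 1, Ly6g, lower (17.4% and 20.1% of all tested genes were). These shares also apply to the progenitor, mast cell and basophil counts below. Myeloid progenitor markers summed to 102102 to 104133 in WTFL C1 and 179702 to 206453 in dKO C1, and to 102790 to 107859 and 149169 to 174166 in clone C2. Of the 10 progenitor markers 7 rose in each clone, and Ctsg fell in clone C2, from 24679 ± 2685 to 9356 ± 1813. The eosinophil markers summed to 135 to 238 in WTFL C1, with Prg2, Epx, Ear1 and Il5ra at 0, and to 8499 to 16747 in dKO C1. In dKO-LAP* C1 they summed to 1111 to 2173, and in clone C2 to 22 to 29.3 in WTFL and 263 to 367 in dKO cells. Mast cell and basophil markers summed to 104 to 144 in WTFL C1, 2893 to 3302 in dKO C1, 1094 to 1310 in dKO-LAP* C1, 180 to 192 in WTFL C2 and 976 to 1379 in dKO C2. All 5 tested rose in clone C1, while 3 rose in clone C2 and Ms4a2 fell there, from 61.8 ± 12.3 to 8.1 ± 3.98. Tpsb2 was at 0 in all 5 groups, Fcer1a in all but dKO C1, and Cpa3 in WTFL C1. Lymphoid and erythroid markers reached at most 13.6 and 18.3 normalized reads as sums, and none was tested.

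The genes most like Relb over the 15 libraries were Prps1l1, Lmo4, Naip6, Zc3h12a and Abcc5, with Pearson's r of 0.97, 0.96, 0.96, 0.95 and 0.94 on log2(normalized reads + 1), which the high level in WTFL C1 dominates. Prps1l1 and Naip6 have close relatives with which reads may be shared. Zc3h12a, the gene of an RNase that degrades inflammatory messages, had 998 ± 199 normalized reads in WTFL C1, 179 ± 27.9 in dKO C1, 151 ± 13 in dKO-LAP* C1, 236 ± 23.3 in WTFL C2 and 184 ± 14.2 in dKO C2. Of the set, Nfkb2 was the nearest to Relb (rank 6, r = 0.94) and Rel the farthest (rank 1943, r = 0.49).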

How the data were processed

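RNA-seq of 15 libraries was used: WTFL, dKO and dKO-LAP* cells of clone C1 and WTFL and dKO cells of clone C2, 3 each. The libraries were stranded and sequenced from both ends. Per the labels, the authors used STAR 2.5.3a with mm10, HTSeq 0.10.0 for gene counts and DESeq2 1.26.0 for scaling, and the deposited signal is a normalized read count; the counting annotation and strand setting are not given in the sources used here. The 5 rows of HTSeq's other reads (22.4% to 26.2% of a library) were left out. A further 3 columns, named for LAP* cells of clone C2, matched no sample and were not used here. At least 99.99% of the values in each column lay within 0.1 of a whole number of reads, with which edgeR 4.0.16 and DESeq2 1.42.0 were run as alternatives.

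Values were modelled as log2(normalized reads + 1) in limma 3.58.1 (R 4.3.3), with a trended prior and a mean for each of the 5 groups. A gene was tested if 3 or more libraries held 10 or more normalized reads (12673 of 24520 with any read), p-values were adjusted by Benjamini-Hochberg over all of them, and the script was tested on simulated data. Alternatives were pseudocounts of 0.1 and 5, no filter, quantile normalization, blocking on the replicate number, fitting the compared groups alone, edgeR, DESeq2 and leaving out each library. The members and lists were chosen with earlier results of these data known. Named from each list were up to 4 genes with the largest change among those that both clones called with the same sign. Any other gene named was chosen after its values were seen. Positions and lengths are from GENCODE vM21 (mm10). Python 3.11.15, pandas 2.3.3 and matplotlib 3.10.9 served for tables and plots.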

Additional observations from a re-analysis of the deposited data

Results flagged for a closer look

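The dKO effect (dKO minus WTFL, log2) was compared between the clones by a test of the difference itself (limma, adjusted p under 0.05). It differed for 5 of the 10 genes and for 6 of the genes named from the lists. Of all 12673 tested genes, 29.4% differed in either direction. The named genes were picked for large changes called in both clones, so their count does not describe the lists. Given as clone C2 minus clone C1, the difference was 2.05 for Relb (adjusted p = 0.0018), 0.95 for Nfkb1 (adjusted p = 1.2e-05), 0.54 for Nfkb2 (adjusted p = 0.024), 3.50 for Nfkbiz (adjusted p = 1.9e-05) and 1.98 for Tnfaip3 (adjusted p = 0.0023). Among the other genes it was 4.36 for Tnip3 (adjusted p = 0.00053), 0.99 for Tnip1 (adjusted p = 1.8e-05), 0.59 for Tnfrsf1b (adjusted p = 0.0076), 3.77 for Cxcl2 (adjusted p = 0.0095), 3.57 for Cxcl10 (adjusted p = 0.0082) and 2.89 for Traf1 (adjusted p = 0.017). All 11 had the more negative difference in clone C1, whose WTFL cells also had the higher mean of each of these genes. Tnip3 in clone C2, Cxcl2 in dKO C1 and Traf1 in dKO cells lie near the limit of 3 reads, where the fitted value depends on the pseudocount. Cxcl2 in dKO C2 reached at most 10 reads. Single genes were not searched for outlying samples, since each group has 3.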

How the results depend on the processing

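Of the differences of the 10 genes in 6 comparisons, 457 of 480 values under the 8 alternatives and 385 of 420 with a library left out kept their direction and their side of the threshold. The count of genes called lower stayed at 8 to 10 in dKO C1, dKO-LAP* C1 and WTFL C2, each against WTFL C1, and at 3 to 5 in clone C2, and the effects differed between the clones for 4 to 6. For clone C2, DESeq2 called 1 gene higher (Nfkb1), against 0, and leaving out a library gave 0 to 1. For dKO-LAP* against dKO cells the count called lower went from 1 to 0 with a pseudocount of 0.1, without a filter and with the replicate block, to 2 with DESeq2 (Nfkbia and Relb), and to 0 without any library of either group. In that comparison the difference of Rel turned from -0.01 to 0.01 under quantile normalization, edgeR and DESeq2, to 0.04 without replicate 3 of dKO C1 and to 0.14 without replicate 1 of dKO-LAP* C1, in a range of -0.14 to 0.14 with a library left out. In clone C2, Rel turned to 0.05 without replicate 1 of WTFL cells (range -0.22 to 0.05) and Nfkbiz to 0.01 without replicate 2 of dKO cells (range -0.41 to 0.01). The cause was not tested. Replicate 2 was the highest library for 9 of the 10 genes in WTFL C1 and for 8 in WTFL C2. Over all tested genes, the replicate numbers did not pair the samples consistently. The correlations of deviations were -0.174 to 0.297 over the 5 pairs of groups compared, none with all replicates over 0.1. With the number as a replicate block, Relb passed in clone C2 (adjusted p = 0.035) and Tnfaip3 did not (adjusted p = 0.053), Nfkbia did not in dKO-LAP* against dKO cells (adjusted p = 0.061), and the block changed no other call of the 10 genes. Quantile normalization moved the share of calls that were higher from 46.3% to 56.6% in dKO against WTFL C1 cells and from 43.6% to 56.9% in dKO-LAP* against WTFL C1 cells. A fit of only the groups compared lowered it from 32% to 21.3% in dKO-LAP* against dKO cells. Counts of 3 reads or fewer were taken as near 0, a limit that was set and not tested.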
